A study of Mus musculus with 3 samples.

Results

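The comparison described here sets the liver of mice given zinc oxide (ZnO) nanoparticles for 12 weeks against the liver of mice given phosphate-buffered saline (PBS). Its members are 2 of the 3 libraries of the series, taken by their treatment labels, with 1 library a side. Both libraries came from CD-1 mice, an outbred laboratory strain. The treated animals received a sonicated suspension of the particles orally, in daily doses of 25 mg/kg, and the control animals received the same volume of PBS. The remaining library, from mice given the same dose for 8 weeks, shares the control, so its values are set beside those at 12 weeks only as a description. The labels used here do not give sex, age, the number of animals behind a library or when the control was collected. With 1 library per group no difference has a replicate check, no p-value is given, and differences between individual mice cannot be told apart from the treatment.

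Zinc that enters a cell is bound by metallothioneins and moved by dedicated importers and exporters, and the metal-sensing factor Mtf1 switches on metallothionein genes through short metal response elements. The liver also answers cytokines such as interleukin 6 and interleukin 1 by secreting acute phase proteins, acting through STAT3, NF-kappaB and C/EBP factors. The same organ makes and burns fatty acids, stores glycogen under the control of insulin, and holds sets of genes that growth hormone keeps at different levels in males and females.

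The control library held 13614979 counts and the 12-week library 13263211, so that 3 counts were worth 0.221 and 0.227 CPM, the unit of counts scaled to library size. Of 28 hepatocyte marker genes, 0 differed at 2-fold, and their median log2 ratio was 0.00. Transcripts of the mitochondrial genome took 9.91% of control counts and 10.2% at 12 weeks. Skeletal muscle markers summed to 13.9 CPM in the control and 21.7 CPM at 12 weeks, against 282 CPM at 8 weeks. Ckm, Mb, Myh2 and Myh4 were at 0 counts in both compared libraries. Of 14 kept muscle markers 1, Neb, was at least 2-fold higher at 12 weeks (log2 ratio 1.16), but not with 5 CPM added. The muscle list went from 188 to 288 counts in sum, a log2 ratio of 0.65. Of 14 pancreatic markers 4 were kept, 2 with positive and 2 with negative ratios. The 2 negative ones were Pnlip, from 18 counts to 0, and Ctrb1, from 21 to 2. Neither differed at 2-fold with 5 CPM added before the ratio was taken. The whole pancreatic list went from 141 to 89 counts.

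At 12 weeks, genes of the acute phase, metallothioneins, macrophage markers, female-biased cytochromes P450 and several enzymes of fat synthesis stood higher than in the control, while some enzymes of fatty acid oxidation and of bile acid synthesis and several tubulins stood lower. Each difference below is a log2 ratio of CPM + 1. The words higher and lower stand for genes that differed at least 2-fold, which sets a size and tests nothing. Of 14585 genes kept at 1 CPM or more in a library, 454 (3.11%) were higher and 196 (1.34%) lower, which makes 4.46% in either direction, and the median of all kept genes was -0.01. The 8-week library, set against the same control, had 605 genes (4.15%) on the higher and 307 (2.1%) on the lower side, 6.25% in all. Of the kept genes, 313 reached 1 CPM at 8 weeks alone, and with 1 CPM added these could not be called at 12 weeks. That library also held the muscle transcripts given above, so these shares do not rank the treated libraries by how far they differ. Where an interval is given, it is the exact 95% interval of the log2 count ratio and covers counting error only. The exact interval lay wholly past 2-fold for 306 of the kept genes on the higher side and 120 on the lower side. Among the 1588 genes with a mean of 100 CPM or more, 40 were higher and 31 lower.

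**Figure D1:**
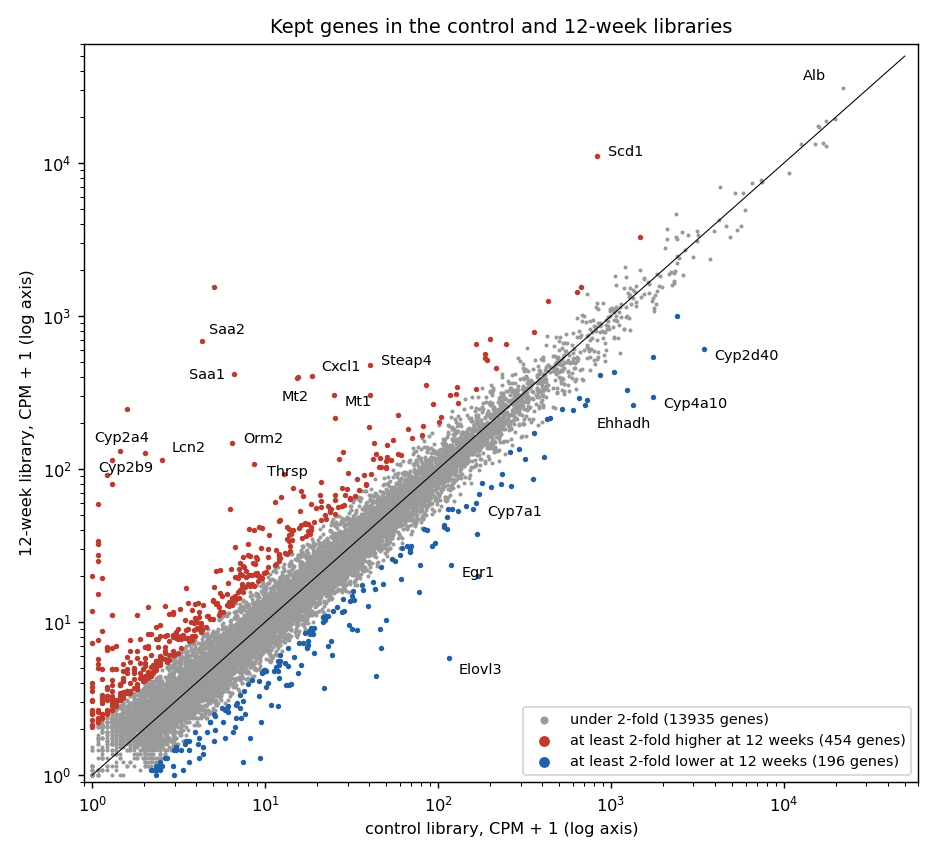
CPM + 1 of each of the 14585 kept genes in the control (horizontal) and 12-week (vertical) libraries, both axes logarithmic, with genes at least 2-fold higher in red (454) and lower in blue (196). Saa2, Saa1 and Scd1 stand far above the diagonal, Elovl3, Cyp4a10 and Cyp2d40 below it, and albumin (Alb) lies close to it.

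Among the genes with the highest ratios, leaving out predicted models and entries counted together with an overlapping one, were Saa2, Cyp2a4, Saa1, Cyp2b9, Lcn2, Orm2, Cxcl1, Cyp2b13, Nnmt, Scd1, Thrsp, Mt1, Steap4 and Lepr, in that order. The lowest were Elovl3, Slc35f1, Selenbp2, Pitx3, Cyp4a10, Cspg5, Cyp2d40, Ehhadh, Tubb2a, Egr1, Cyp4a12b, Cyp4a31, Mtnr1a, Ppp1r3c and Sparcl1. Levels were compared between genes as TPM, which corrects for gene length and library size, over 12115 protein-coding nuclear genes. Scd1 moved from rank 228 to rank 11, Mt2 from rank 1557 to rank 55, and Saa2 from rank 8977 to rank 130. In the other direction Cyp2d40 moved from rank 8 to rank 68 and Elovl3 from rank 516 to rank 6682. Alb held rank 2 in the control and rank 1 at 12 weeks.

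Among genes of zinc handling, the metal-binding proteins and the transporters differed by unlike amounts. Metallothioneins 1 and 2 are small cysteine-rich proteins that bind zinc and other metals, and their genes lie next to each other on chromosome 8. The 300-base promoter windows of both genes, which span the RefSeq start and lie mostly upstream of it, are shown with that of Slc30a1, the plasma membrane zinc exporter, because all 3 carry metal response element cores while their transcripts differed by very different amounts. Capitals mark matches to TGCACNC or TGCGCNC on either strand, and sequences are from RefSeq for build GRCm38.p6, whose mouse strain is not CD-1.

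Mt1, chr8:94178839-94179138, + strand: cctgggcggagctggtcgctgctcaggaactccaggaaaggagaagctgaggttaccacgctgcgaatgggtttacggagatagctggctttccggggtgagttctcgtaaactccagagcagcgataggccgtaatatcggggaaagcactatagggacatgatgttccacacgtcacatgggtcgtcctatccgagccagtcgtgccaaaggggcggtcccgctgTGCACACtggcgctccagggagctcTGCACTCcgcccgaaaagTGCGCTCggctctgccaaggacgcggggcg
Mt2, chr8:94172368-94172667, + strand: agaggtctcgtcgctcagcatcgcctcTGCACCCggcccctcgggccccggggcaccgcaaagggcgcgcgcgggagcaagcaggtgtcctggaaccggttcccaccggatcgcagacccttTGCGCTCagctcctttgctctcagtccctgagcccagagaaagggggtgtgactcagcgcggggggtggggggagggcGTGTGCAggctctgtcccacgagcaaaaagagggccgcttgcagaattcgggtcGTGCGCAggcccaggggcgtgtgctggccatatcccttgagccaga
Slc30a1, chr1:191906531-191906830, + strand: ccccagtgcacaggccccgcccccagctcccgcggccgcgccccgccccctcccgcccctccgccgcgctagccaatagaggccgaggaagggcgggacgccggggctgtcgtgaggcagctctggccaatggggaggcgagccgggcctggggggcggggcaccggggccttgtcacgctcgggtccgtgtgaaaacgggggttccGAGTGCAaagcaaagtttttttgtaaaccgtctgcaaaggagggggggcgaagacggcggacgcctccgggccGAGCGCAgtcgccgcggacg

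The Mt1 window held 3 matches, the Mt2 window 4 and the Slc30a1 window 2. At least 1 match occurred in 25.7% of all 32851 promoter windows and at least 3 in 1.97%. Among the genes at least 2-fold higher at 12 weeks that have a window, 31.6% held a match in any of their windows. The same share over all kept genes with a window was 39.5%. A match is a description of the letters and not a binding site.

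Mt2 had 197 (control), 810 (8 weeks) and 5266 (12 weeks) counts, a log2 ratio at 12 weeks of 4.68 (interval 4.57 to 4.99). Mt1 had 324, 842 and 4033 counts in the same order, a log2 ratio of 3.62 (interval 3.51 to 3.84). Together the pair went from 38.4 to 702 CPM, which is 18.3-fold. For both genes the 8-week library lay between the other libraries. Mt2 shares its position with another annotated entry that has nearly the same counts, so its reads cannot be assigned to 1 of them. Metallothionein genes are known to respond to metals, glucocorticoids and acute phase cytokines alike, and which of these acted here was not tested.

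Of 23 kept metallothionein and zinc transporter genes, Mt1 and Mt2 were the 2 called higher and 0 were lower, with a list median of 0.22. The importer Slc39a14, known to be induced in the liver by interleukin 6, went from 1942 to 3773 counts, a log2 ratio of 0.99 (interval 0.91 to 1.07) just under 2-fold. Slc30a1 had 760 and 795 counts, a log2 ratio of 0.10 (interval -0.05 to 0.25). The interval of Slc30a1 includes 0. Slc30a10, a manganese exporter, went from 993 to 585 counts (-0.72) and had 291 at 8 weeks. The sensor Mtf1 had 293 and 390 counts (0.43).

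Acute phase proteins are plasma proteins that hepatocytes secrete in greater or smaller amounts during inflammation. All 40 listed genes were kept, 12 of them were called higher and 0 lower, with a list median of 0.55 beside -0.01 for all kept genes. Serum amyloids Saa1 and Saa2 travel with high-density lipoprotein during inflammation, and both genes were nearly silent in the control. Their promoter windows are shown because the genes are near-identical copies that differ in orientation, and because each holds 1 match to TTGCNNAA, a form of the C/EBP site, in capitals.

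Saa1, chr7:46742931-46743230, - strand: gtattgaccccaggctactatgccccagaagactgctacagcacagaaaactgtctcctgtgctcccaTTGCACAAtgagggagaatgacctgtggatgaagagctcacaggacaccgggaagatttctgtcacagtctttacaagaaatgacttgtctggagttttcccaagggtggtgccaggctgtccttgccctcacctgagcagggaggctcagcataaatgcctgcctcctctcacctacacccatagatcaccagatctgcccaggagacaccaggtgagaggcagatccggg
Saa2, chr7:46751583-46751882, + strand: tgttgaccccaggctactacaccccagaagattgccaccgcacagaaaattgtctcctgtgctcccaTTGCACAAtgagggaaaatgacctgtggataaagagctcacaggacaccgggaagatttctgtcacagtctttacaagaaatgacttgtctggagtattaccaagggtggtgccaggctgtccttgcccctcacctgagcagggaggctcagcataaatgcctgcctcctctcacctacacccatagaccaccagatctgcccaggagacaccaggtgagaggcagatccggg

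This motif, searched on both strands, occurred in 10.8% of all windows. Counted by gene, with a match in any window of the gene, it occurred in 10.4% of kept genes with a window. The share was 20.7% of the 304 higher genes with a window and 8.73% of the 126 lower ones. Saa2 had 45 (control), 702 (8 weeks) and 9058 (12 weeks) counts, a log2 ratio of 7.31 (interval 7.27 to 8.14). Saa1 had 76, 1264 and 5528 counts (5.99, interval 5.89 to 6.57). Because reads may be divided between copies, the sum is the firmer value, and Saa1 and Saa2 together went from 121 to 14586 counts, 124-fold (log2 interval 6.69 to 7.22). Saa3 and Saa4, the other members of the cluster, had log2 ratios of 1.33 and 1.17. Saa4, a constitutive member, had 19863 control and 43746 treated counts.

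The orosomucoids, acidic glycoproteins that bind drugs and lipids, were higher as a family, from 2600 to 9571 counts in sum. Orm2 went from 74 to 1946 counts (4.52), Orm3 from 2 to 103 (2.94) and the abundant Orm1 from 2524 to 7522 (1.61). Their sum at 8 weeks, 9630 counts, was already close to that at 12 weeks, unlike the sum of Saa1 and Saa2, which stood at 1966. Lcn2, a lipocalin that withholds iron from bacteria, had 21, 214 and 1514 counts in the control, 8-week and 12-week libraries (5.50, interval 5.59 to 6.90). Steap4, a metalloreductase induced by inflammation, had 536, 1284 and 6371 (3.57). Both were thus higher at 12 than at 8 weeks.

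Among abundant secreted proteins the differences were smaller. The fibrinogen chains Fga, Fgb and Fgg had log2 ratios of 0.96, 0.70 and 0.82, none of them 2-fold, and together they went from 0.874% to 1.53% of all counts. The protease inhibitors Serpina3n (1.18) and Itih4 (1.20) passed 2-fold. Haptoglobin (Hp), which binds free hemoglobin, had 0.80, and hemopexin (Hpx), which binds free heme, 0.58. C-reactive protein (Crp), a minor acute phase protein in mice, had 0.52. Albumin, which is known to decrease in an acute phase response, went from 296431 to 412810 counts (0.51). The 5 Serpina1 genes, near-identical copies of alpha-1 antitrypsin, all had negative ratios, and their sum had a log2 ratio of -0.28. Retinol carrier Rbp4 had -0.45 and transthyretin (Ttr) 0.44.

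**Figure D2:**
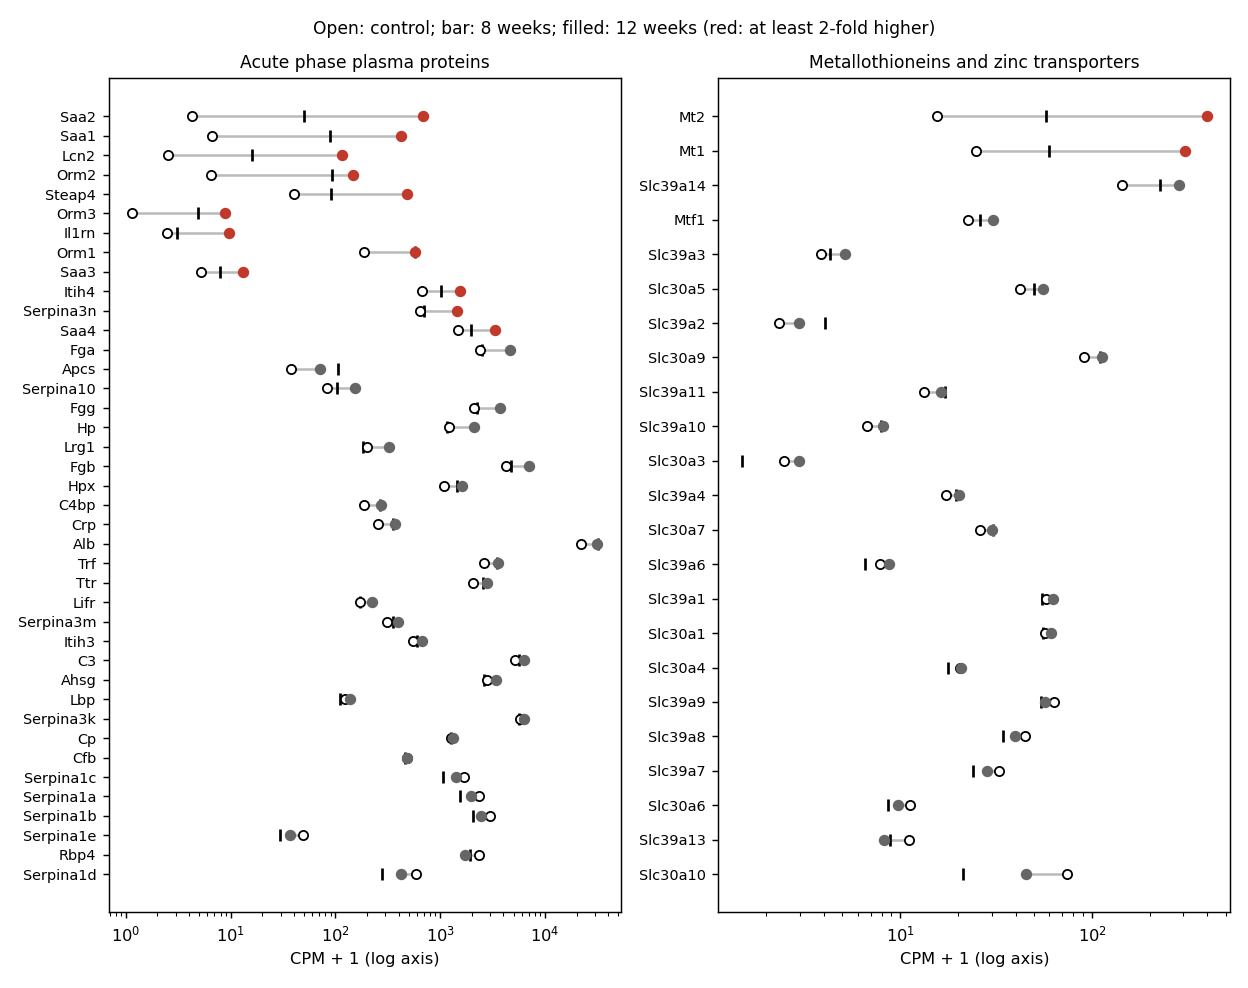
CPM + 1 (log axis) of the 40 acute phase genes (left) and the 23 kept metallothionein and zinc transporter genes (right), ordered by log2 ratio. Open circles are the control, bars the 8-week library and filled circles the 12-week library, in red where at least 2-fold higher: the 12 red genes on the left range from just past 2-fold (Saa4, Serpina3n) to Saa2, on the right Mt1 and Mt2 are red, and the other genes differ by less than 2-fold.

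Genes that carry and damp cytokine signals were examined next. Of 30 cytokine receptor and JAK-STAT genes, 4 were higher and 0 lower (median 0.41). The interleukin 1 receptor Il1r1 went from 1762 to 3550 counts (1.04), while its accessory chain Il1rap had -0.12. The interleukin 6 receptor chains Il6ra and Il6st had 0.62 and 0.73. Stat3, the factor downstream of them, had 1084 and 2099 counts (0.98, interval 0.88 to 1.10). The feedback inhibitor Socs3 went from 117 to 242 counts (1.00, interval 0.76 to 1.41) and thus sat at the threshold. The STAT5-responsive inhibitors Socs2 and Cish went from 184 to 518 counts (1.46) and from 15 to 154 (2.58). Cytokine transcripts themselves were scarce, with Il6 at 0 and 2 counts, Tnf at 0 and 3 and Il1b at 27 and 63.

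Chemokines draw leukocytes into tissue. Of 29 kept chemokine, adhesion and NF-kappaB feedback genes, 8 were higher and 0 lower (median 0.44), and 4 were higher with 5 CPM added. Cxcl1, which attracts neutrophils, had the highest ratio of the list. Its window is printed with that of Cish because both genes were higher and each window holds a pair of matches: 2 matches to GGG, any 2 bases and TTTCC, an NF-kappaB form, in Cxcl1 and 2 to TTCNNNGAA, a STAT form, in Cish, in capitals.

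Cxcl1, chr5:90890995-90891294, + strand: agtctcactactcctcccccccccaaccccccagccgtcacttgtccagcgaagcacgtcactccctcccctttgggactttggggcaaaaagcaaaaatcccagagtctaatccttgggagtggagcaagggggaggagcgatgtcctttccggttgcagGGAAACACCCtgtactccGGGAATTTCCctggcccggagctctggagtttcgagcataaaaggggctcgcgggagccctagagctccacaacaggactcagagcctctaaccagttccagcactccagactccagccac
Cish, chr9:107296409-107296708, + strand: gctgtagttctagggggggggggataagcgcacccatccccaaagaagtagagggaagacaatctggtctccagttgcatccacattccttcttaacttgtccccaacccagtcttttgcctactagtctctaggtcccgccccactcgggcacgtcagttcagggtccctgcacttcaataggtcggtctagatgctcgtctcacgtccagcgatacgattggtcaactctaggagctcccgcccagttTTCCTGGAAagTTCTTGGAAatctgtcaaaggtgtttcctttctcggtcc

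The NF-kappaB form, on either strand, occurred in 1.63% of all windows. Counted by gene, it occurred in 2.04% of kept, 5.92% of higher and 3.17% of lower genes with a window. The STAT form occurred in 8.30% of all windows, and in 8.46%, 13.8% and 7.14% of the same sets of genes. Cxcl1 had 240 (control), 774 (8 weeks) and 5346 (12 weeks) counts (4.44, interval 4.33 to 4.70). The interferon-induced chemokines Cxcl9 and Cxcl10 went from 26 to 137 counts (1.96) and from 4 to 30 (1.33). Ccl6, a macrophage chemokine, went from 30 to 149 (1.93), and the adhesion molecules Vcam1 and Icam1 had 1.79 and 1.07. The NF-kappaB inhibitors Nfkbia and Tnfaip3, which are quick targets of the pathway, had 0.09 and 0.23. The list thus held called genes and genes near 0 side by side.

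Most macrophage markers were higher at 12 weeks. Of 24 markers of Kupffer cells, the resident macrophages of the liver, and of other macrophages, 18 were called higher and 0 lower, with a median of 1.42. With 5 CPM added in place of 1, 10 were called and the median was 0.81. They summed to 341 CPM (control), 828 CPM (8 weeks) and 656 CPM (12 weeks). Some markers used for Kupffer cells were higher and some were not. Clec4f, a lectin, went from 329 to 890 counts (1.43, interval 1.29 to 1.66). Timd4, a receptor for dying cells, went from 23 to 96 (1.61) and was not called with 5 CPM added. Marco, a scavenger receptor, went from 87 to 294 (1.65). Mpeg1, a pore-forming protein of phagocytes, had the highest ratio of CPM + 1 in the list (2.03). Among the markers not called were Mrc1 (0.22), Folr2 (0.38) and Clec1b (0.02), of which Folr2 and Clec1b are also used for Kupffer cells. In bulk liver RNA, more cells of a type and more RNA per cell cannot be told apart.

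**Figure D3:**
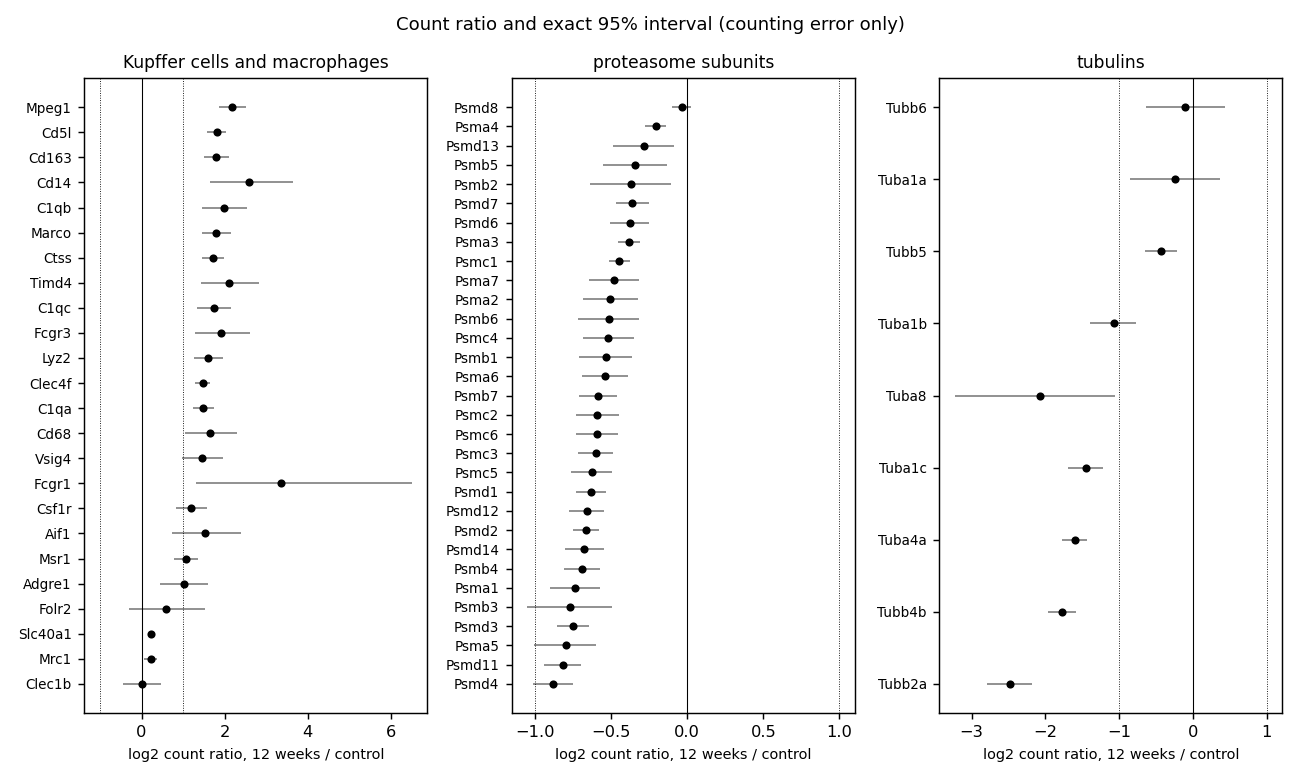
Log2 count ratio of 12 weeks to control (no added CPM) for the 24 macrophage markers (left), 31 proteasome subunits (middle) and 9 kept tubulins (right), with exact 95% intervals that cover counting error only; the horizontal scale differs between panels. Vertical lines mark 0 and 2-fold in each direction: all macrophage markers lie at or above 0, and all proteasome subunits and tubulins lie below it. Fcgr1 and Tuba8 have wide intervals.

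Markers of blood leukocytes, endothelium and stellate cells were examined in the same way. Of 23 markers of monocytes, neutrophils and granulocytes, 9 were kept, 1 was higher (Itgam, 9 and 40 counts), and all 9 had positive ratios. The whole list summed to 136 control and 317 treated counts, a log2 ratio of 1.26 (interval 0.96 to 1.56) beside 0.95 (interval 0.89 to 1.00) for the sum of the macrophage list. Its count of called genes was 6 with 0.5 CPM added and 0 with 5 CPM added. The neutrophil genes S100a9 and Ly6g had 2 and 3 control counts against 14 and 14 treated counts, so transcripts of these cells were scarce in both. Lymphocyte markers had a median of -0.04 with 1 of 10 higher, the pan-leukocyte gene Ptprc (1.28), but the median was 0.29 over the 8 members kept without the 8-week library, and the sum of the list had a log2 ratio of 0.55. Endothelial markers had a median of 0.31 with 1 of 25 higher, Lyve1 (1.17). Stellate cell and fibroblast markers had a median of 0.39 with 1 of 24 higher, Vim (1.07). Both counts lie near the 3.11% of all kept genes that were higher, and both became 0 with 5 CPM added. Among 17 kept collagens of the list 1 was higher, Col4a5 (19 and 61 counts), which was not called with 5 CPM added. The fibrillar chains Col1a1 (0.94), Col1a2 (0.96) and Col3a1 (0.82) stayed under 2-fold, and the list median was 0.57. Col20a1, a collagen gene outside the list, was also higher (1.04).

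Complement proteins come from hepatocytes and from macrophages. Of 38 kept genes 6 were higher and 0 lower (median 0.12). The C1q chains, made by macrophages, went from 286 to 856 counts in sum (3.07-fold), and properdin (Cfp) and the ficolin Fcna had 1.38 and 1.46. These moved with the macrophage markers above, to which the C1q chains belong. Of the components made by hepatocytes, C4a (1.79) was called, Hc, which encodes C5, had 0.93, C3 had 0.29 and factor B (Cfb) 0.00. In coagulation 1 of 34 genes was higher, thrombomodulin (Thbd, 26 and 72 counts), and 0 were with 5 CPM added. That count lies near the 3.11% of all kept genes that were higher. Prothrombin (F2) and plasminogen (Plg) had 0.01 and -0.05.

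Genes induced by interferon gamma, among them GTPases that attack intracellular pathogens, had 9 of 21 members higher and 0 lower (median 0.84). The count was 2 of 21 with 5 CPM added, and 3 of 11 with near-identical copies summed. The guanylate-binding protein genes went from 609 to 1514 counts in sum, and Gbp7, Gbp2 and Gbp3 had 1.51, 1.49 and 1.45. The transcription factor Irf1 had 0.37 and Irf8, a macrophage factor, 1.14. Genes of the type I interferon response had 3 of 40 higher (median 0.49), namely Parp14 (1.35), Samd9l (1.20) and Ifit2 (1.18), while Isg15, Mx1 and Rsad2 had 0.59, 0.55 and 0.01. That count was 10 with 0.5 CPM added and 1 with 5 CPM added. Antigen presentation had 4 of 29 higher (median 0.51). The immunoproteasome subunits Psmb8 (1.04) and Psmb10 (1.22) were called, in contrast with the standard proteasome described below. Neither of these subunits was called with 5 CPM added.

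Of 27 iron genes 2 were higher, Lcn2 and Steap4, and 1 was lower, Id1 (217 and 99 counts), a target of the signal that induces hepcidin (median -0.06). Id1 lay at the threshold and was not called with DESeq2 size factors. Hepcidin (Hamp), the hormone that blocks iron export and is known to be induced by interleukin 6, went from 8042 to 5233 counts (-0.58) and had 2644 at 8 weeks. The transferrin receptor Tfrc had -0.64 and the ferritin chains Ftl1 and Fth1 had -0.44 and -0.10. Of 11 heme synthesis genes 10 had negative ratios (median -0.37), and Alas2, the erythroid form of the entry enzyme, was the 1 called lower (-1.20). Alas1, the entry enzyme in the liver, was the exception at 0.92. The heme-degrading enzyme Hmox1 had 5 and 15 counts.

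Genes of fat synthesis moved in both directions. Of 41 kept genes, 9 were higher and 4 lower, around a median of 0.03. Scd1, the desaturase that makes oleate, had 11206 (control), 216926 (8 weeks) and 147443 (12 weeks) counts (3.75, interval 3.73 to 3.78). At 12 weeks it alone took 1.11% of all counts, against 0.0823% in the control. Thrsp, a regulator of lipogenesis, had 104, 3252 and 1422 counts (3.64), and the elongase Elovl6, which makes stearate, 330, 2562 and 2862 (3.10). Fatty acid synthase (Fasn) went from 448 to 1128 counts (1.34, interval 1.21 to 1.53).

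The 4 lower genes of this list were Elovl3, Elovl5, Elovl2 and Pparg. The elongases act on very long or polyunsaturated chains. Elovl3 had 1559, 40 and 64 counts in the control, 8-week and 12-week libraries (-4.31), Elovl5 9545, 5802 and 3466 (-1.42) and Elovl2 11706, 8937 and 5406 (-1.08). The elongase family therefore held both Elovl6 on the higher side and these on the lower side. The lipogenic transcription factors did not differ to a like degree: Srebf1 had 305 and 274 counts (-0.11), the carbohydrate sensor Mlxipl had -0.17 and the oxysterol receptor Nr1h3 -0.12. Mlxipl's known target Pklr, the liver pyruvate kinase, went from 670 to 1877 counts and was called higher. Citrate-handling Acly (0.67) and the acyltransferases Gpam (-0.14) and Dgat2 (0.15) were not called.

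Most genes of fatty acid oxidation had negative ratios. Of 53 genes 43 had negative ratios, 8 were called lower and 3 higher (median -0.47), where 51% of all kept genes had negative ratios. The omega-hydroxylase Cyp4a10 went from 23601 to 3894 counts (-2.56, interval -2.61 to -2.52) and the peroxisomal enzyme Ehhadh from 18127 to 3462 (-2.35, interval -2.41 to -2.30). The thiolase Acaa1b had -1.27, and the mitochondrial trifunctional subunits Hadha and Hadhb -0.82 and -0.90. Ppara itself had 0.33 and Pdk4, also a PPAR-alpha target, 0.98. The hormone Fgf21 went from 241 to 102 counts (-1.11). The 3 higher genes were Acsl4 (1.37), Acot3 (1.20) and Cyp4a14 (1.02), while Acot1, a near copy of Acot3, had -1.45. Summed, Acot1 to Acot4 went from 6377 to 3871 counts (-0.69), and with near-identical copies summed the list held 1 higher and 5 lower of 46.

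**Figure D4:**
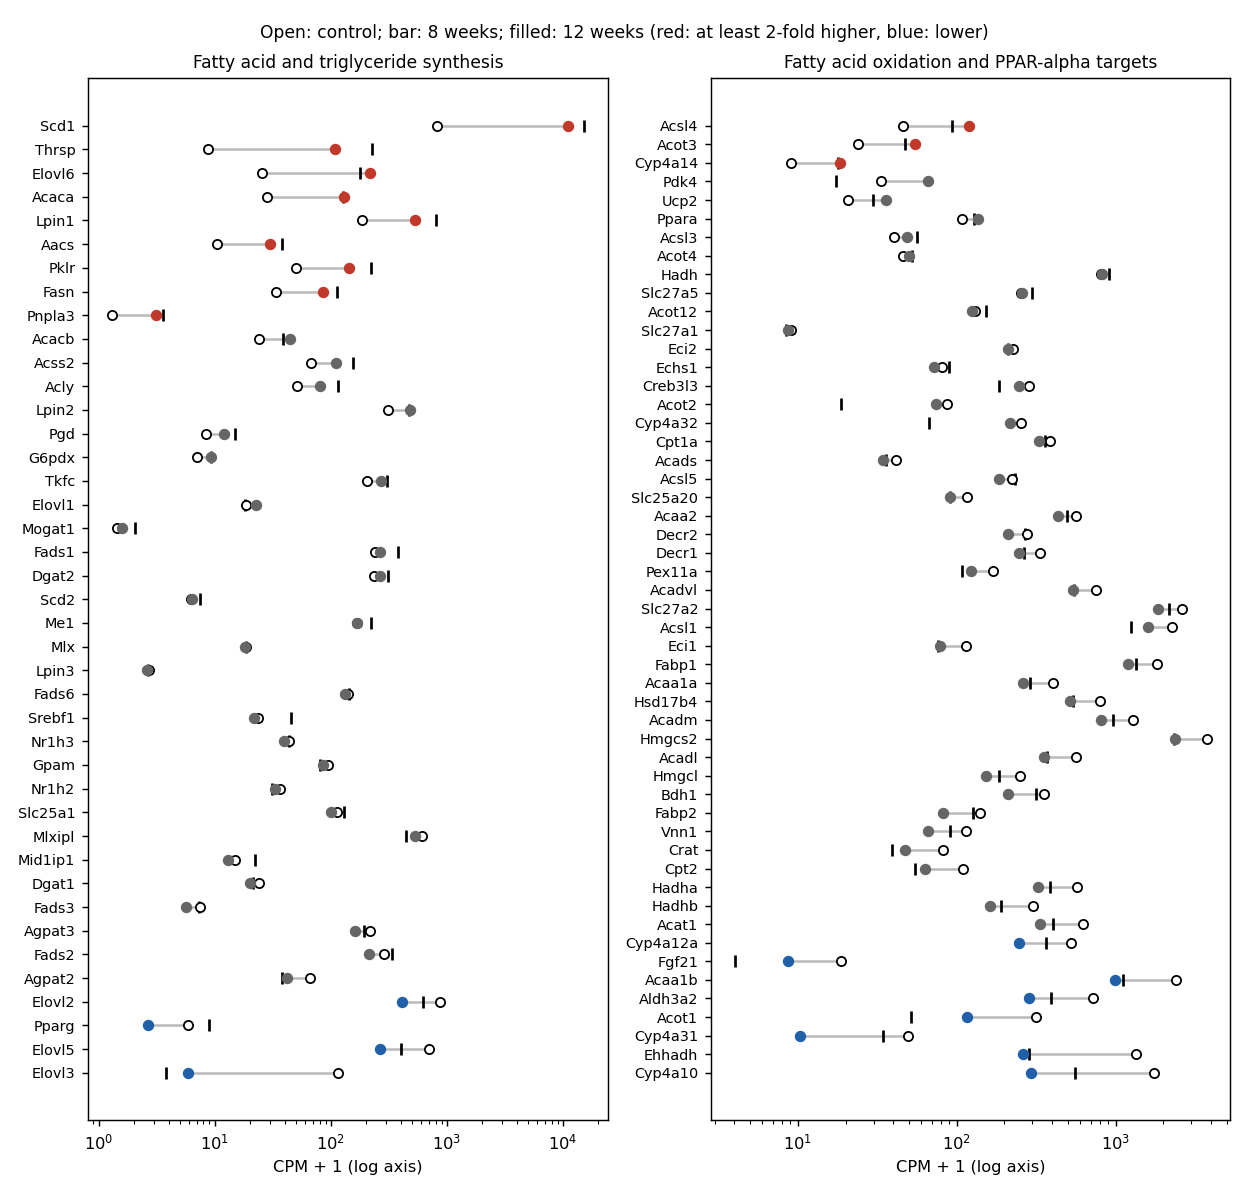
CPM + 1 (log axis) of the 41 fat synthesis genes (left) and 52 of the 53 fat oxidation genes and PPAR-alpha targets (right), ordered by log2 ratio. Open circles are the control, bars 8 weeks and filled circles 12 weeks (red at least 2-fold higher, blue at least 2-fold lower): on the left 9 red genes and 4 blue genes lie at opposite ends, and on the right 8 are blue and 3 red.

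Lipid storage and transport genes differed less. Among 33 droplet proteins and lipases 3 were higher and 2 lower (median -0.27), with the droplet enzyme Hsd17b13 at -1.18, the droplet coat Plin2 at -0.53 and lipoprotein lipase (Lpl) at 1.17. The fatty acid transporter Cd36 went from 154 to 856 counts (2.41) and had 1099 at 8 weeks. Of the apolipoproteins, Apob had 0.07, Apoa1 -0.54 and Apoe -0.33. In cholesterol synthesis 0 of 30 genes were higher and 2 lower, the synthase Hmgcs1 (-1.12) and the SREBP anchor Insig2 (-1.07). The median of that list was 0.02, against 0.70 at 8 weeks.

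Bile acid synthesis had 3 of 22 genes higher and 4 lower (median -0.30). The enzyme that limits the pathway, Cyp7a1, had 2240 (control), 3604 (8 weeks) and 782 (12 weeks) counts (-1.47, interval -1.60 to -1.37). Cyp8b1, which directs synthesis to cholic acid, had 4797, 2327 and 1127 (-2.04). Both were lowest at 12 weeks, and for Cyp7a1 the 8-week library was the highest of the 3. The repressor Nr0b2, known to be induced by bile acids through FXR, was also lower (323 and 144 counts, -1.06). Cyp2c70, which makes the muricholic acids of mice, went from 537 to 4055 counts (2.92) and the oxysterol enzyme Cyp39a1 from 150 to 595 (1.93). The uptake transporter Slc10a1 and the export pump Abcb11 had 0.25 and -0.19, while Slc10a2, the ileal-type bile acid transporter, had 1.83.

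Among genes of drug metabolism, the Cyp2a and Cyp2b enzymes hydroxylate steroids and foreign compounds. Of 9 kept genes of that list 7 were higher and 0 lower (median 2.03). Cyp2b9 and Cyp2b13 are neighbours whose promoter windows were the same at 298 of 300 positions, and the windows are printed to show how alike the copies are, with the differing positions in capitals.

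Cyp2b9, chr7:26173159-26173458, + strand: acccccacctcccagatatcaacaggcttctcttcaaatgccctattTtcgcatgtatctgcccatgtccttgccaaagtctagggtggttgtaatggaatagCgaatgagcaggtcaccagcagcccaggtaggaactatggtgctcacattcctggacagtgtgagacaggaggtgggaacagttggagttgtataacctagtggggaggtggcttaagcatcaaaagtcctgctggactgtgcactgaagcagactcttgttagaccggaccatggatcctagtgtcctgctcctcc
Cyp2b13, chr7:26061245-26061544, + strand: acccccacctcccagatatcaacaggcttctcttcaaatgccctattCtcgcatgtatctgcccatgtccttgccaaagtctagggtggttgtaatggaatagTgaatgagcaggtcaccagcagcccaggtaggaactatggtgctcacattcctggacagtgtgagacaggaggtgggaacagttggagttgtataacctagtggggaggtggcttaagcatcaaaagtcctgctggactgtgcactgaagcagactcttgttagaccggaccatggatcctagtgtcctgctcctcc

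Cyp2b9 had 14 (control), 3653 (8 weeks) and 1684 (12 weeks) counts (5.98), and Cyp2b13 had 2, 229 and 244 (4.08). Single values are uncertain for such copies, and the Cyp2b genes together went from 35 to 2018 counts, 59.1-fold (log2 interval 5.40 to 6.41). Cyp2b10, the usual target of the xenobiotic receptor CAR, contributed 19 and 90 of them (1.70). Cyp2a4 and Cyp2a5, a steroid and a coumarin hydroxylase of near-identical sequence, went from 1146 to 6391 counts in sum (5.71-fold), with Cyp2a4 alone at 6 and 1724. The Cyp2c genes had 5 of 12 higher, and their sum had a log2 ratio of 0.72. Cyp2d40 went from 46692 to 8048 counts (-2.50, interval -2.54 to -2.47) with 23733 at 8 weeks, and was the 1 of 7 Cyp2d genes called. Cyp1a2 (0.02), Cyp3a11 (-0.26) and Cyp2e1 (-0.45), major P450s of the liver, were not called.

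Several of these genes are known for a sex difference set by the pattern of growth hormone release. Of 25 kept female-biased genes 14 were higher and 0 lower (median 1.20), and 9 were higher with 5 CPM added. Besides the P450s these included Cux2, a transcription factor of female liver, with 9 and 88 counts. Of 39 male-biased genes 5 were lower and 2 higher (median -0.32). Selenbp2 (-2.78) and Cspg5 (-2.56) were lower, Egfr, the epidermal growth factor receptor, went from 5883 to 16592 counts (1.53), and the STAT5-repressed factor Bcl6 had 0.11.

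The major urinary proteins (Mup), male-biased pheromone carriers, were counted apart because their copies are so alike. Of 28 kept Mup entries 0 were called, and the family took 1.62% of control counts and 1.33% at 12 weeks, against 0.747% at 8 weeks. The growth hormone receptor (Ghr) had 0.15, Stat5b 0.14, Igf1 0.62 and Igfbp2, a binding protein of Igf1, -0.82. The liver factor Onecut1 went from 142 to 790 counts (2.40). The leptin receptor Lepr had 72, 318 and 716 counts (3.13), and Nnmt, which methylates nicotinamide, 1, 24 and 190 (3.84). The ratio of Nnmt rests on a single control count.

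Other enzymes and transporters of foreign and endogenous compounds had called members in both directions. The Cyp4a genes, omega-hydroxylases of fatty acids, went from 35907 to 10582 counts in sum, 3.31-fold lower, although Cyp4a14 was higher. The male-biased Cyp4a12b went from 1045 to 194 counts (-2.32) and Cyp4a31 from 661 to 124 (-2.26). On the higher side, the sulfotransferase Sult3a1 had 0 and 28 counts, the oxygenase Fmo2 96 and 525, and the drug exporter Abcb1a 22 and 155 (2.28). The organic anion transporter genes Slc22a26 and Slc22a27, which are similar copies, had log2 ratios of 2.35 and 2.30.

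Several of the lowest ratios belonged to genes outside these pathways. Slc35f1, of a family of nucleotide sugar transporters, had 113 (control), 2 (8 weeks) and 4 (12 weeks) counts (-2.84). In the same order the melatonin receptor Mtnr1a had 97, 5 and 10 (-2.22), the homeobox factor Pitx3 87, 2 and 3 (-2.60), and the matrix protein Sparcl1 115, 122 and 16 (-2.10). Among lysosomal genes 5 of 47 were higher and 0 lower (median 0.10), and these included the macrophage markers Ctss and Cd68, the cathepsins Ctse (5 and 52 counts) and Ctsk (0 and 15), and the proton pump subunit Atp6v0d2 (3 and 30).

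The series title names insulin resistance. Among 52 genes of insulin, PI3K, AKT and mTOR signalling 0 were higher and 1 lower (median -0.01). Of all kept genes, 3.11% were higher and 1.34% lower. The insulin receptor (Insr) had 3328 and 3364 counts (0.05, interval -0.02 to 0.12). Its substrates Irs1 and Irs2 had -0.51 (interval -0.69 to -0.36) and 0.46 (interval 0.29 to 0.66), in opposite directions and both under 2-fold. The phosphatase Ptpn1, which removes phosphate from the receptor, had 0.90 and the transcription factor Foxo1 0.84. Trib3, an AKT-binding pseudokinase, was the gene called lower (211 and 84 counts, -1.17), but not with 5 CPM added.

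In glucose handling 5 of 46 genes were higher and 0 lower (median 0.14). The higher ones lay on the side of glucose and fructose use: Pklr, the fructokinase Khk (1.07), Pfkfb3 (1.06), Pkm (1.05) and Hk1 (1.05). Pfkfb3, Pkm and Hk1 were not called with 5 CPM added. The gluconeogenic enzymes Pck1 and G6pc went from 25082 to 19194 counts (-0.35) and from 8339 to 4953 (-0.72). Neither reached 2-fold. The subunits that tether protein phosphatase 1 to glycogen moved apart, Ppp1r3g from 103 to 517 counts (2.22) and Ppp1r3c from 2280 to 489 (-2.16), while glycogen synthase (Gys2) and phosphorylase (Pygl) had 0.31 and 0.63. In the urea cycle and nitrogen list 1 of 16 was higher, the aminotransferase Got1 (1.47), and Cps1 had 0.59.

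Stress responses were mixed. Among 34 genes of endoplasmic reticulum folding 0 were called (median 0.00), with the chaperone Hspa5 at 0.79 and Hsp90b1 at -0.50. Of 25 integrated stress response genes 2 were higher, Chac1 (11 and 72 counts) and Ddit4 (15 and 49), and 4 lower, among them Atf5, which went from 14146 to 5652 (-1.29). The apoptosis-linked factor Ddit3 had 0.74. The inducible heat shock protein genes Hspa1a and Hspa1b, neighbouring near copies, went from 388 to 1615 counts in sum (4.26-fold), and their co-chaperone Bag3 had 1.07, while the other 26 heat shock genes were not called.

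Oxidant defence genes did not move together upward. Of 28 kept NRF2 targets and glutathione genes 1 was higher, the glutathione transferase Gstm3 (1.66), with a list median of -0.11. The aldehyde oxidase Aox1 (-1.41) and the epoxide hydrolase Ephx1 (-1.03) were the 2 lower ones. Over all kept genes 3.11% were higher and 1.34% lower. Gclc, the rate-limiting enzyme of glutathione synthesis, had 6396 and 3316 counts (-0.91). The quinone reductase Nqo1 had 1 and 2 counts, too few to compare. Superoxide dismutases Sod1 and Sod2 had -0.23 and 0.04. Of 24 antioxidant enzymes 1 was called, the secreted peroxidase Gpx3 (44 and 117 counts), and 0 were with 5 CPM added. Over all kept genes 4.46% were called in either direction.

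**Figure D5:**
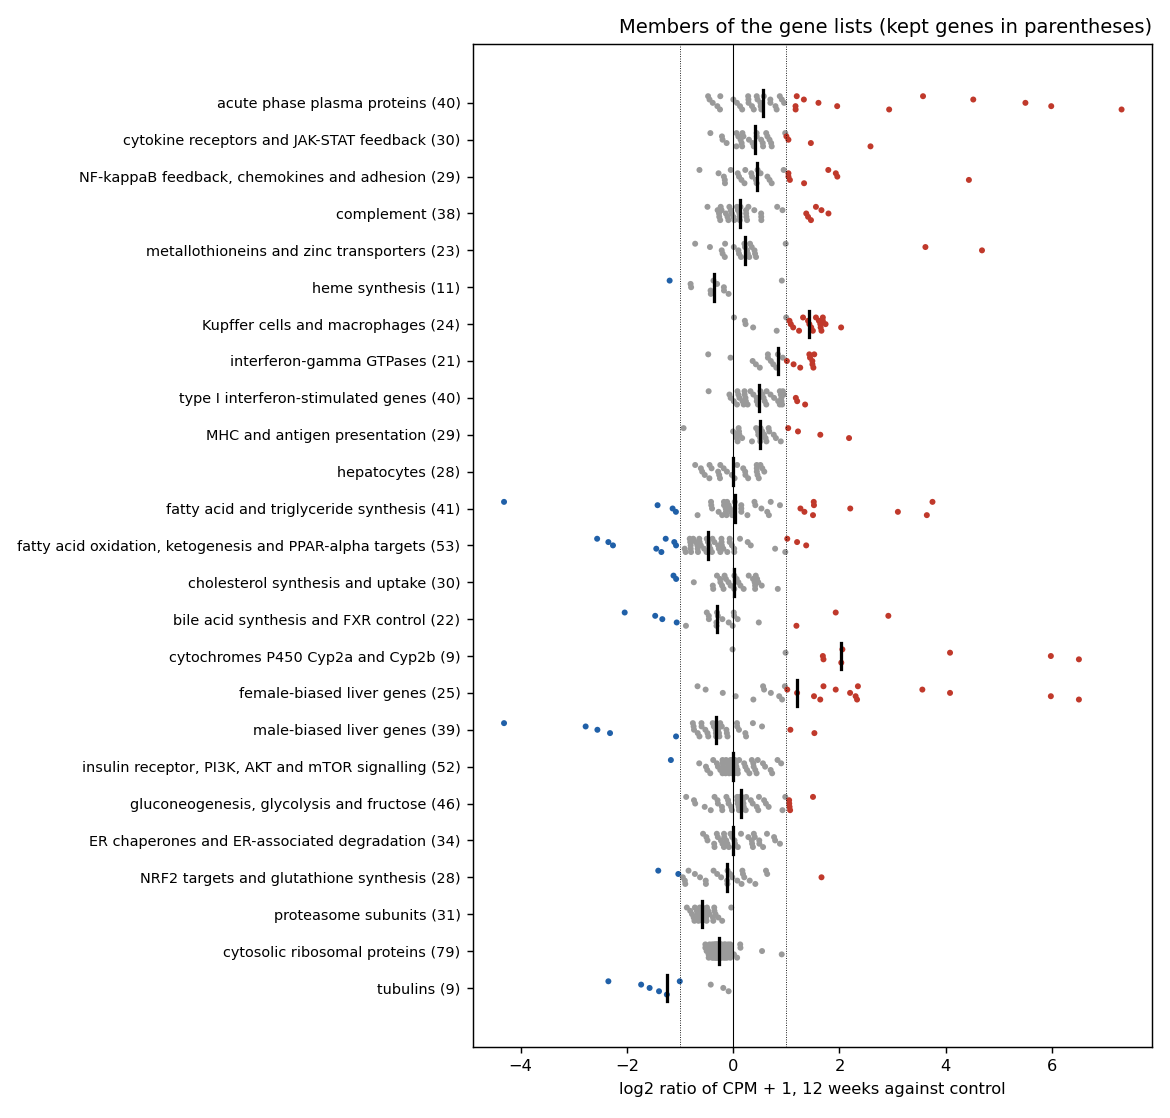
Log2 ratio of CPM + 1 of every kept member of 25 gene lists, 12 weeks against control, with the number of kept genes in parentheses. Black bars are list medians, dotted lines mark 2-fold, red points are higher and blue points lower: macrophage markers and Cyp2a and Cyp2b genes have medians above 1, tubulins below -1, and insulin signalling, hepatocyte and ER lists centre near 0.

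Subunits of large protein machines differed by small amounts. All 31 standard proteasome subunits, which degrade ubiquitin-tagged proteins, had negative ratios, from -0.87 (Psmd4) to -0.04 (Psmd8), with a median of -0.58 and 0 called. Of 79 kept entries named as cytosolic ribosomal proteins 73 were negative (median -0.28) and 0 were called. Nuclear genes of the respiratory chain had 48 negative and 25 positive ratios (median -0.09) and 0 of 73 called. Tubulins, the subunits of microtubules, went further: of 9 kept genes 6 were lower and 0 higher (median -1.25). Tubb2a went from 614 to 107 counts (-2.35), Tubb4b from 1056 to 301 (-1.73) and Tuba4a from 1246 to 400 (-1.57). Summed over copies, alpha tubulins went from 2192 to 786 counts and beta tubulins from 2174 to 778, which is 2.72-fold and 2.73-fold lower.

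Genes that mark position in the liver lobule were examined by zone. Of 34 pericentral genes 6 were lower and 2 higher (median -0.39), and of 34 periportal genes 1 was lower and 2 higher (median 0.11). Among the lower pericentral genes were the Wnt targets Axin2 (139 and 50 counts, -1.24) and Lgr5 (69 and 21, -1.23). Neither was called with 5 CPM added. The remaining lower genes were Cyp7a1 (-1.47), Aldh3a2 (-1.35), Csad (-1.30) and Avpr1a (-1.16). The Wnt targets Rnf43, Znrf3, Nkd1 and Notum, also in the list, were not called. The 2 higher pericentral genes were Cyp2a5 (2.06) and Cyp2c29 (1.15). Glul and Cyp2e1, the most used pericentral markers, had 0.24 and -0.45.

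Clock and early response genes also differed, and the hour of collection was not given. Of 27 clock genes 4 were higher and 1 lower, the positive-limb factor Arntl, with 245, 20 and 70 counts (-1.60). The negative-limb gene Per2 had 273, 1098 and 600 (1.13). Of 28 immediate early genes 4 were lower and 1 higher, with Egr1 at 1602 and 301 counts (-2.33) and Gadd45g at 273 and 804 (1.55). Several lipid and bile acid genes named above, Elovl3 and Cyp7a1 among them, are known to follow the clock, and the part of collection time in their values was not tested. Of 29 kept cell cycle genes 2 were higher and 0 lower (median 0.08), where 3.11% of all kept genes were higher. The 2 were the scarce Mki67 (8 and 52 counts) and Top2a (4 and 22). The whole list went from 4299 to 3338 counts in sum, a log2 ratio of -0.33 (interval -0.40 to -0.26). The growth arrest gene Cdkn1a went from 226 to 80 (-1.33). Mki67, Top2a and Cdkn1a were not called with 5 CPM added.

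The called genes fell in places into runs of neighbours on the chromosome. Counting 3 or more kept entries in a row with the same call, predicted and overlapping entries included, there were 13 runs of higher entries and 3 of lower ones. The longest that is made mainly of known genes held 8 entries on chromosome 7 and ran from Axl, a receptor for dying cells, through Cyp2b10, Cyp2b13, Cyp2b9, Cyp2a4 and Cyp2g1 to Cyp2a5. Others were Saa3, Saa4, Saa1 and Saa2 on chromosome 7, Orm1, Orm3 and Orm2 on chromosome 4, the 3 C1q chains on chromosome 4, Serpina3f, Serpina3g, Serpina3h and Serpina3i on chromosome 12, Cyp2c55, Cyp2c29, Cyp2c38 and Cyp2c39 on chromosome 19, and Gbp3, Gbp2b and Gbp2 on chromosome 3. Most of these are families of similar sequence, and how reads shared between copies bear on the runs was not tested. A run of 10 predicted models on chromosome 9, with 3 more on chromosomes 2 and 14, went from 79 (control) to 3523 (8 weeks) and 30200 counts (12 weeks).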

How the data were processed

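RNA sequencing libraries (Illumina TruSeq RNA kit) were made from Trizol-extracted total RNA of flash-frozen livers, per the labels' protocols. The authors deposited estimated counts for each gene, without normalization. Of the values above 0, 70.4% in the control and 71.5% at 12 weeks were whole. The submitters' processing notes name TopHat2 2.1.0, Cufflinks 2.2.1.0 and builds mm9 and mm10. How reads were counted, and whether by strand, is not given in the sources used here. A gene and an overlapping or antisense partner may share reads, and 192 of the 650 called entries overlap another entry. Of 49492 entries, 95.4% had a symbol in GENCODE M21 (GRCm38). All per-sample columns were used.

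Estimated counts were rounded and scaled by TMM over the 3 libraries (edgeR 4.0.16, R 4.3.3). Genes with at least 1 CPM in 1 library were kept, 1 CPM was added before taking log2 ratios, so ratios of scarce transcripts come out too small, and 2-fold was the call. Intervals are exact (Clopper-Pearson) at 95%. Amplified reads that carry no molecular identifier do not count molecules, so intervals and the floor of 3 counts cover counting error only. No test was possible with 1 library a group. The code for the calls and intervals was checked on simulated counts that held counting error alone. Such counts cannot show how the calls hold against the spread between animals. TPM was computed from the counts and the lengths in the files. A run is a set of neighbouring kept entries ordered by start.

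Named genes were the 15 highest and 15 lowest among genes of at least 5 CPM in 1 of the 2 libraries, leaving out predicted models and entries whose counts came within 25% of those of an overlapping entry, up to 6 called members of each of 71 lists or its 2 most abundant where none was called, the 10 genes with the largest share of counts, and a set of zinc, insulin, lipid and inflammation genes. Not every such gene is printed, and a few are not reported here. Further list members named to show a range were picked with their values in view. The comparison and the lists were chosen with earlier results of these data known. Promoter windows matched by symbol came from RefSeq (10055 kept genes had one). Alternatives were other pseudocounts, filters, folds and scalings (DESeq2 1.42.0 size factors, upper quartile, totals), protein-coding genes alone, entries without overlap, and summed families. Python, numpy, pandas, scipy and matplotlib were used.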

Additional observations from a re-analysis of the deposited data

Results flagged for a closer look

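Against the shared control, 2 genes passed 2-fold in opposite directions at 8 and 12 weeks, and neither difference was tested. Col20a1, a collagen gene, had 82 (control), 26 (8 weeks) and 178 (12 weeks) counts, log2 ratios of -1.32 at 8 weeks and 1.04 at 12 weeks. H19, an imprinted non-coding RNA, had 26, 103 and 2 counts, ratios of 1.49 and -1.34, and with so few counts at 12 weeks the interval ran from -6.79 to -1.67.

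Skeletal muscle markers summed to 282 CPM in the 8-week library, which the comparison uses only for scaling and for the filter, against 13.9 in the control. Of 14585 kept genes, 313 reached 1 CPM at 8 weeks alone.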

How the results depend on the processing

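Without replicates, none of the differences can be set against the spread between animals. The counts of 454 higher and 196 lower genes became 179 and 80 with 5 CPM added, 1354 and 907 at 1.5-fold and 132 and 48 at 3-fold. The lower count became 120 where the whole interval had to pass 2-fold. Under the remaining alternatives both counts stayed within 1.5 times, from 306 to 641 higher and from 136 to 283 lower. Removing the filter could not change them, because with 1 CPM added a gene under 1 CPM in both libraries cannot reach 2-fold. Leaving out the 8-week library could change them only through scaling, and they stayed at 454 and 196. Scaling by totals, DESeq2 size factors or upper quartile gave 454 to 461 and 190 to 195, with factors all close to 1. These scalings moved the share of called genes that were higher by less than 1 percentage point. Of 219 genes followed singly 0 changed direction, and 126 of the 201 called ones stayed called with 5 CPM added. By the DESeq2 size factors 200 stayed called. Counts of called members stayed within 1.5 times in 42 of 71 lists with 5 CPM added, 59 with 0.5 CPM added and 64 with a 5 CPM filter, and in 6 of the 14 lists with near-identical copies once these were summed. With 5 CPM added, besides the lists given with their values above, glucose handling had 2 higher, lysosomal genes 1, antigen presentation 2, the integrated stress response 0 higher and 1 lower, immediate early genes 1 lower, cell cycle genes 0 higher and insulin signalling 0 lower. With copies summed, the Cyp2a and Cyp2b list had 4 of 6 higher. No paired analysis was possible because each group holds 1 library. Genes of a few counts, such as Nnmt and Cyp2b13 in the control, are limited by depth.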
